A study of Homo sapiens with 18 samples.

Results

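The genes described here encode the RNA polymerase II transcription machinery, measured by RNA-seq in GIST-T1, a cell line from a human gastrointestinal stromal tumor. They are the 108 genes, of 23621 in the expression table, whose symbols begin with POLR2 and a letter A to M, with GTF2A, GTF2B, GTF2E, GTF2F or GTF2H, or with MED, TAF, SUPT or INTS and a digit. Their number includes 16 polymerase II subunits and associated copies, 16 genes of the factors TFIIA, TFIIB, TFIIE, TFIIF and TFIIH, 17 of TFIID, 7 of SAGA, 30 of Mediator, 4 elongation and histone chaperone genes, 12 of Integrator and 4 of the polymerase I factor SL1. The remaining 2 are TAF15, which encodes an RNA-binding protein, and an antisense RNA named after MED4. Of the 108 genes, 101 passed the filter on low values (at least 1 FPKM in at least 3 libraries) and were tested. The 7 that did not pass were GTF2A1L, MED12L, TAF1L, TAF7L, SUPT20HL1, SUPT20HL2 and the antisense RNA MED4-AS1.

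Cells received imatinib, an inhibitor of the KIT kinase, for 6 h or 24 h, JQ1, which displaces BET bromodomain proteins from acetylated chromatin, for 6 h or 24 h, both drugs for 24 h, or the solvent DMSO. Each drug was used at 500 nM. There were 3 libraries in each of the 6 groups, and how long the DMSO cells were kept is not among the labels. All libraries come from this 1 line, and nothing in the labels says whether the libraries of a group are separate cultures, so p-values measure the spread between these libraries, which may be technical. The line's markers were present in DMSO libraries, with KIT at 644, ANO1 at 346 and ETV1 at 101 FPKM on average, while the leukocyte marker PTPRC and the endothelial markers PECAM1, VWF and CDH5 were below 0.24 FPKM. Of the epithelial markers CDH1 averaged 0.219 and KRT18 538 FPKM in DMSO libraries.

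Transcription by polymerase II starts when TFIID, which holds the TATA-binding protein and its associated factors (TAFs), TFIIA and TFIIB place the polymerase on a promoter with TFIIE, TFIIF and TFIIH. Mediator connects this assembly to activators bound at enhancers, and its kinase module can detach from it. SAGA is a coactivator that shares several TAFs with TFIID, the SUPT elongation factors accompany the moving polymerase, and Integrator cleaves nascent RNA close to its start.

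With every drug treatment, RNA of the transcription machinery was lower than in DMSO on the deposited scale, and so was RNA of most other genes. The values are FPKM, read counts divided by transcript length and library size, on the scale of ERCC spike-in RNAs, which the protocols describe as added to RNA of counted cells. The spike-in rows summed to 6505 to 6948 in every library. The FPKM of the 108 genes summed to 4974 to 5471 in imatinib 6 h libraries, 4565 to 5483 in JQ1 6 h libraries, 2140 to 2360 in imatinib 24 h libraries, 2727 to 3493 in JQ1 24 h libraries and 1390 to 2479 in combination libraries, against 7211 to 10889 in DMSO libraries. No drug-treated library reached the lowest DMSO library. All libraries are of the same cell line, and by the protocols' description the spike-ins relate the values to a counted number of cells. Whether cell counting, RNA recovery or the scaling to spike-ins contributed to the lower values was not tested. The combination and DMSO libraries spread most: summed over all genes, FPKM ran from 286566 to 499857 in the combination libraries and from 1833221 to 2463615 in the DMSO libraries.

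A gene is said to have risen or fallen where limma gave an adjusted p below 0.05 and the log2 change of FPKM + 1 was at least 1 in size. After 6 h of imatinib 22 of the 101 genes fell and 0 rose, beside 20% of all tested genes that fell. After 6 h of JQ1 61 fell and 0 rose, beside 49.8% that fell. At 24 h, 95 fell with imatinib, beside 72.1% of all tested genes, 90 with JQ1, beside 75.3%, and 98 with both drugs, beside 86%, and 0 rose in each. The shares of all tested genes that rose were 0.384% and 0.642% at 6 h (imatinib and JQ1), and 0.642%, 0.399% and 0.235% at 24 h (imatinib, JQ1 and both). The count for imatinib at 6 h depended on single DMSO libraries. It was 12 without DMSO replicate 3 and 39 without DMSO replicate 1. No share of all tested genes was computed with a library left out. Nor was the share of all tested genes whose libraries did not overlap between groups. As most genes were lower than in DMSO, a lack of overlap stated below cannot be read as particular to a gene.

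**Figure D1:**
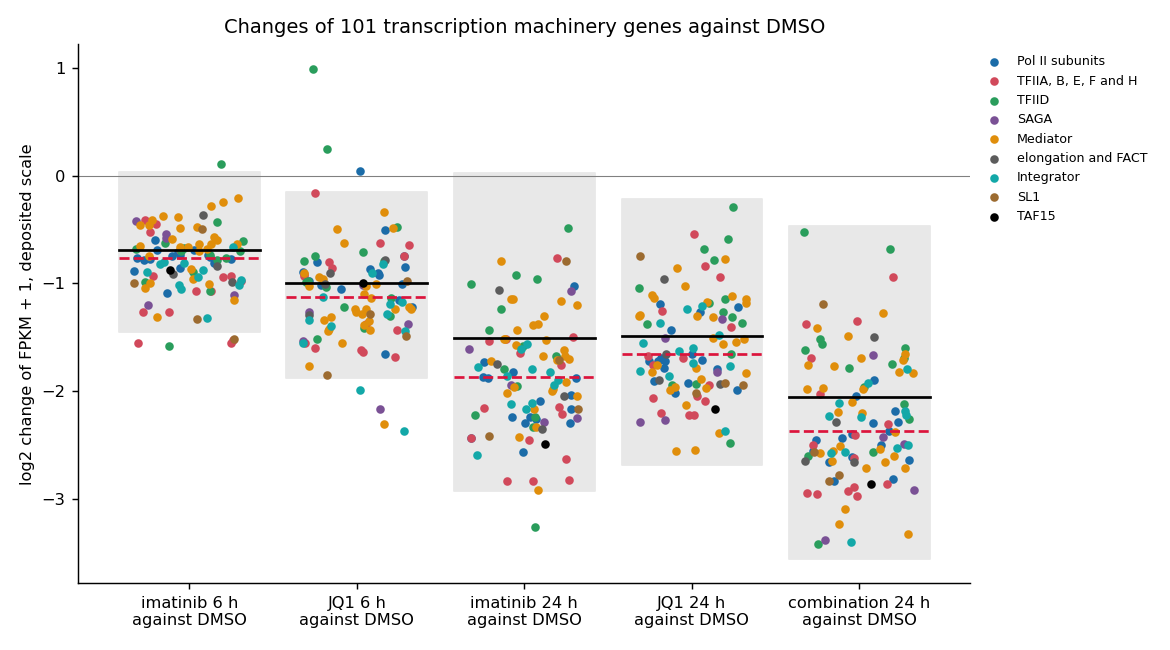
Log2 change of FPKM + 1 against DMSO on the deposited scale for the 101 tested genes, 1 point per gene, colored by complex, in the 5 comparisons. The solid line is the median of all 12771 tested genes, the dashed line the median of the 101 genes, and the grey box leaves out the lowest 5% and the highest 5% of all tested genes; the dashed line lies below the solid one in each comparison, and TAF9 with JQ1 at 6 h is the highest point.

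Relative to the typical tested gene, the machinery moved little as a group, apart from imatinib at 24 h and, on the deposited scale, the combination. With imatinib at 24 h, 21 of the 101 genes lay above the median of all tested genes on the deposited scale. The median log2 change of the 101 genes was -0.76, -1.12, -1.87, -1.66 and -2.37 for imatinib 6 h, JQ1 6 h, imatinib 24 h, JQ1 24 h and the combination. The medians of all tested genes were -0.69, -1.0, -1.5, -1.49 and -2.05 in the same order. The gap between the medians was widest for imatinib at 24 h, at -0.37, followed by the combination, at -0.32. Among genes that averaged at least 5 FPKM, whose fold changes the added 1 shrinks less, these gaps were -0.15 and -0.09. In a second scaling, every library was divided by 1 factor, the median over genes of its ratio to the geometric mean of all libraries, which puts the typical gene close to 0 and is called the ratio-rescaled scale below. On that scale the medians of the 101 genes were -0.004, -0.01, -0.21, -0.02 and -0.08 in the order above. Calls on that scale numbered 0 for imatinib at 6 h, 3 that rose and 3 that fell for JQ1 at 6 h, 5 that fell for imatinib at 24 h, 2 that rose for JQ1 at 24 h, and 3 that rose and 5 that fell for the combination. The shares of all tested genes that rose and fell on this scale were 1.22% and 2.08% for imatinib at 6 h, 2.47% and 2.57% for JQ1 at 6 h, 8.8% and 8.72% for imatinib at 24 h, 5.25% and 6.47% for JQ1 at 24 h, and 9.17% and 10.1% for the combination. With each library set instead to 1 common total FPKM, called the total-rescaled scale below, 2 genes rose and 5 fell with JQ1 at 6 h (beside 1.44% and 6.39% of all tested genes), 6 rose and 1 fell with imatinib at 24 h (20% and 4.01%), 2 rose and 0 fell with JQ1 at 24 h (7.09% and 5.67%), 9 rose and 3 fell with both drugs (12% and 8.93%), and 0 were called with imatinib at 6 h (1.28% and 2.16%). The medians of all tested genes on this scale were 0.01, -0.26, 0.39, 0.07 and 0.10 in the order above. GTF2B, TAF7 and MED26, whose log2 changes were below 0 in all 5 comparisons on the deposited scale, were above 0 in all 5 on both rescaled scales. All 5 comparisons use the same 3 DMSO libraries, so they are not independent of each other. The SD of the log2 changes over the 101 genes was 0.49, against 0.82 over all tested genes, for imatinib at 24 h on the ratio-rescaled scale.

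After 6 h of JQ1, 3 genes stood at the top and 3 at the bottom of the group. TAF9, a histone-fold protein shared by TFIID and SAGA, had 856, 700 and 871 FPKM in JQ1 6 h libraries, against 319, 417 and 491 FPKM in DMSO libraries. Every JQ1 6 h library lay above every DMSO library. Its log2 change was 0.998 ± 0.19 (SE), just under the threshold, with an adjusted p of 4.4e-05, and 0.83% of all tested genes had a higher one. The change passed the threshold without DMSO replicate 2 (1.02), DMSO replicate 3 (1.14) or JQ1 6 h replicate 2 (1.10), and on the ratio-rescaled scale TAF9 rose, by 2.14 ± 0.05 with an adjusted p of 1.64e-14.

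TAF12, a histone-fold protein also shared by TFIID and SAGA, had 29.9, 25.6 and 30.9 FPKM in JQ1 6 h libraries, against 20.2, 23.6 and 29 FPKM in DMSO libraries. These groups overlapped. POLR2A, the largest subunit of polymerase II, which carries its catalytic center and its C-terminal repeats, had 154, 159 and 167 FPKM in JQ1 6 h libraries, against 130, 143 and 197 FPKM in DMSO libraries. These overlapped as well, and the log2 changes on the deposited scale were 0.25 ± 0.19 for TAF12 (adjusted p = 0.211) and 0.05 ± 0.20 for POLR2A (adjusted p = 0.812). The sign for POLR2A turned to -0.07 without DMSO replicate 1 and to -0.004 without DMSO replicate 2. On the ratio-rescaled scale both rose, TAF12 by 1.32 ± 0.05 (adjusted p = 1.83e-12) and POLR2A by 1.19 ± 0.06 (adjusted p = 1.2e-10), and on the total-rescaled scale POLR2A, at 0.86, was not called.

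INTS3, a subunit of Integrator and of a complex that binds single-stranded DNA, had 8.22, 7.49 and 8.83 FPKM in JQ1 6 h libraries, against 39.2, 44.4 and 58.0 FPKM in DMSO libraries. MED12, which activates the kinase of the Mediator kinase module, had 3.10, 3.37 and 3.59 FPKM in JQ1 6 h libraries, against 17.8, 18.9 and 25.3 FPKM in DMSO libraries. SUPT20H, a SAGA subunit, had 11.7, 9.43 and 11 FPKM in JQ1 6 h libraries, against 42, 52.1 and 61.4 FPKM in DMSO libraries. For these 3 genes the highest JQ1 6 h library lay far below the lowest DMSO library. All 3 fell, INTS3 by 2.38, MED12 by 2.3 and SUPT20H by 2.16 on the log2 scale, with adjusted p of 1.06e-10, 9.52e-11 and 4.56e-10. They also fell on the ratio-rescaled scale, where INTS3 stood at -1.25, MED12 at -1.21 and SUPT20H at -1.04 (adjusted p = 5.9e-13, 2.27e-11 and 2.38e-12). Among all tested genes, 1.18% had a lower deposited log2 change than INTS3 and 1.48% a lower one than MED12.

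**Figure D2:**
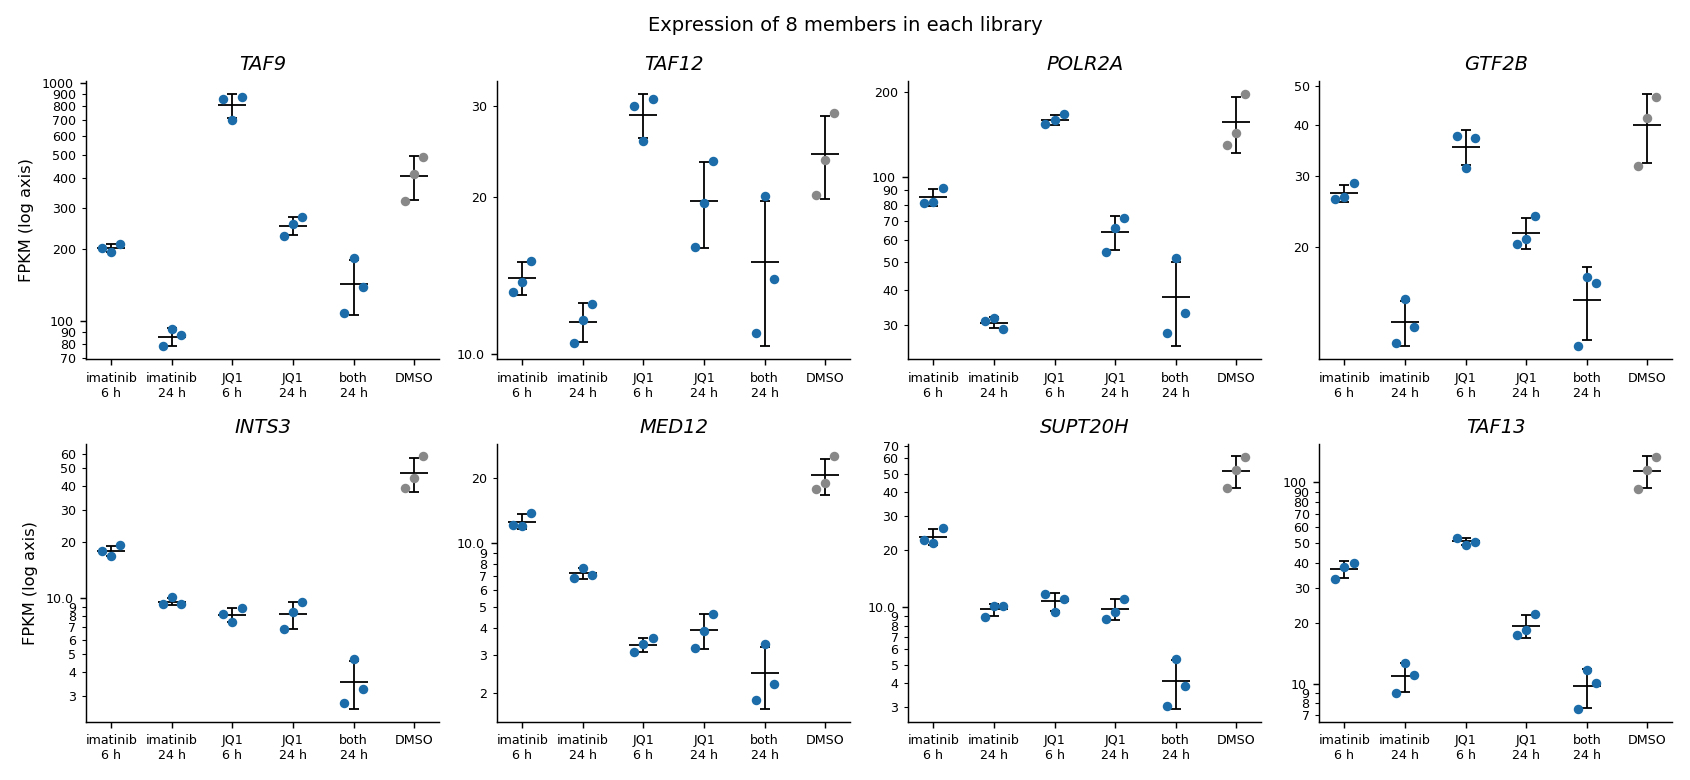
FPKM on a logarithmic axis in each of the 18 libraries for 8 genes, with the 5 drug groups in blue, left of DMSO in grey; horizontal lines are means and bars are SD over 3 libraries. TAF9 averaged 809 FPKM with JQ1 at 6 h against 409 FPKM with DMSO, while INTS3 averaged 8.18 against 47.2 FPKM.

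The promoters of these 6 genes are shown because the 6 lay at the 2 ends of the group after 6 h of JQ1. They were copied from RefSeq annotation of GRCh38.p14 and run 5′ to 3′ on the gene's strand, with 250 bases before the annotated start and 50 bases from it on, 300 in all. TAF9 has 2 annotated starts, at chr5:69369775-69370074 and chr5:69369471-69369770 on the minus strand. TAF12 lies at chr1:28643018-28643317 on the minus strand, POLR2A at chr17:7484116-7484415 on the plus strand, INTS3 at chr1:153727800-153728099 on the plus strand, MED12 at chrX:71118346-71118645 on the plus strand and SUPT20H at chr13:37059639-37059938 on the minus strand. Capitals mark exact matches on either strand to 5 motifs. The E-box, read by basic helix-loop-helix proteins, was searched as CACGTG. The TATA box, bound by the TATA-binding protein, was searched as TATAAA. The CCAAT box, bound by the factor NF-Y, was searched as CCAAT and the GC box, bound by SP1 and related factors, as GGGCGG. The site of ETS factors, a family that includes ETV1, was searched as CCGGAAG.
TAF9 (first start): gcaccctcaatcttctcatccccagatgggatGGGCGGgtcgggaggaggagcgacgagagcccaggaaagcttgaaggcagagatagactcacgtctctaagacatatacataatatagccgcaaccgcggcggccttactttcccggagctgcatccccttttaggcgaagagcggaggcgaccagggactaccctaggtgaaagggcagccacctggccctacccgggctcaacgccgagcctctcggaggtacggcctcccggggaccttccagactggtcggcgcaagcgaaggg
TAF9 (second start): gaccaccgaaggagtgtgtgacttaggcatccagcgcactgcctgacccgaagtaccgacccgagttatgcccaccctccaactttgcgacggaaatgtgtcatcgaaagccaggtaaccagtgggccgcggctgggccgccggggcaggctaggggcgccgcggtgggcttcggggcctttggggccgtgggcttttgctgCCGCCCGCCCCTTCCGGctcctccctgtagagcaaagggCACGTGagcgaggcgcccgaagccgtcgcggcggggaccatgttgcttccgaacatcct
TAF12: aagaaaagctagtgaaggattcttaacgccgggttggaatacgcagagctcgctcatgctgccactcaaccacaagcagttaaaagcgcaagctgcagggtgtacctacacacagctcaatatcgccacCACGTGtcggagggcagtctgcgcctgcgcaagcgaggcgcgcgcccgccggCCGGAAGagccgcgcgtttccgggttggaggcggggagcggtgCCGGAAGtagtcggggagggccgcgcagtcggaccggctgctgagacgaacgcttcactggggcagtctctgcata
POLR2A: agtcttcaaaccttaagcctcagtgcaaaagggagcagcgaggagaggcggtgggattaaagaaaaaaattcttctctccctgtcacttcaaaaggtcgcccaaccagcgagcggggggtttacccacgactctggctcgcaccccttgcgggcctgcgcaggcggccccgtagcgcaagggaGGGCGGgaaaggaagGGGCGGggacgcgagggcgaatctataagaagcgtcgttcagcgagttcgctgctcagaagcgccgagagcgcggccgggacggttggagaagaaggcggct
INTS3: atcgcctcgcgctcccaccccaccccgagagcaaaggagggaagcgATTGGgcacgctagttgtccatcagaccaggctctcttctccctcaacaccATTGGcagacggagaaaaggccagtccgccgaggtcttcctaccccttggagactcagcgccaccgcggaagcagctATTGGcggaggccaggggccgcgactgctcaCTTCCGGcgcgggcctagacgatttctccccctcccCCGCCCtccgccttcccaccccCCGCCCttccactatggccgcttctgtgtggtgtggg
MED12: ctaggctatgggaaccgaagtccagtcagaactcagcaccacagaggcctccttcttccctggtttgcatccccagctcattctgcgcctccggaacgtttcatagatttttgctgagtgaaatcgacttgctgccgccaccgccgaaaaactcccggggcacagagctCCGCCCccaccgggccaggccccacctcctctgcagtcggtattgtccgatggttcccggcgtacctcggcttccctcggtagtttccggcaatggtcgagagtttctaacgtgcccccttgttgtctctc
SUPT20H: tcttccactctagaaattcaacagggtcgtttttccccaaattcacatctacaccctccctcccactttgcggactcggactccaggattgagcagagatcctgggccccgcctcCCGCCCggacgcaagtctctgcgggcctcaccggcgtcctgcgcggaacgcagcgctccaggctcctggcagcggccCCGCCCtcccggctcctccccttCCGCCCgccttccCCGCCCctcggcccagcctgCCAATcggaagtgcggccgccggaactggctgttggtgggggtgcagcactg
The E-box letters occurred in the second TAF9 promoter and in that of TAF12, once in each, and in none of the other 5 windows. The ETS letters occurred in the same 2 windows and in that of INTS3. GC box letters occurred in all of the windows but that of TAF12, with 4 matches in SUPT20H, 2 each in INTS3, POLR2A and the second TAF9 promoter, where the 2 overlap, and 1 each in MED12 and the first TAF9 promoter. CCAAT letters occurred 3 times in INTS3 and 1 time in SUPT20H, and the TATA box letters in none of the 7. A match is a run of letters and was not tested as a site.

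Over the 90 annotated promoters of the 76 tested members found in the RefSeq table, 42.2% held the ETS letters, against 16.6% of the 13477 promoters of all tested genes and 10.3% of all 35116 promoters. E-box letters stood in 13.3% of the members' promoters, against 9.16% and 7.26%. For the GC box the shares were 62.2%, 66.0% and 45%, for the CCAAT box 31.1%, 34.8% and 34.6%, and for the TATA box 5.56%, 6.14% and 11.5%, in the same order. These shares are descriptions without a test. The 34 members with the ETS letters had median deposited log2 changes of -0.84, -1.16, -1.82, -1.74 and -2.38 for imatinib 6 h, JQ1 6 h, imatinib 24 h, JQ1 24 h and the combination. For the 42 without them the medians were -0.72, -1.07, -1.81, -1.51 and -2.22. A link between these letters and the changes was not tested.

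Among the polymerase II subunits POLR2H, a small subunit shared by the nuclear polymerases, had the highest level of the 16 in DMSO libraries at 758 ± 146 FPKM (SD, n = 3), and POLR2J4, a copy related to POLR2J, the lowest at 27.2 FPKM. In DMSO comparisons on the deposited scale 1 of the 16 fell with imatinib at 6 h (POLR2D, of the stalk of the enzyme, by 1.09 on the log2 scale), 6 with JQ1 at 6 h, and all 16 with each of the treatments at 24 h. These counts, and those of the other complexes below, stand beside 20% and 49.8% of all tested genes that fell at 6 h of imatinib and JQ1, and 72.1%, 75.3% and 86% at 24 h of imatinib, JQ1 and both. After ratio rescaling 0 of the 16 fell in any of the 5 comparisons. Of all tested genes 2.08% and 2.57% fell on that scale at 6 h of imatinib and JQ1. At 24 h of imatinib, JQ1 and both, 8.72%, 6.47% and 10.1% fell. The shares that rose on that scale were 1.22% and 2.47% at 6 h, and 8.8%, 5.25% and 9.17% at 24 h. These shares also belong beside the ratio-rescaled counts of the other complexes below. On the deposited scale the median log2 change of the 16 at 24 h was -2.13 for imatinib, -1.72 for JQ1 and -2.45 for the combination. POLR2A had 31.1, 31.7 and 29.1 FPKM in imatinib 24 h libraries, 54.2, 66.1 and 71.6 FPKM in JQ1 24 h libraries and 28.2, 52.0 and 33.2 FPKM in combination libraries, against 130, 143 and 197 FPKM in DMSO libraries. All of the 24 h libraries lay below the lowest DMSO library, and POLR2A fell by 2.3, 1.27 and 2.05 on the deposited log2 scale with imatinib, JQ1 and both (adjusted p = 2.41e-10, 2.21e-06 and 8.02e-10), while for JQ1 and for both drugs the sign turned on the ratio-rescaled scale (0.42 and 0.35) and on the total-rescaled scale (0.52 and 0.48). For imatinib the rescaled values were -0.58 and -0.14. With imatinib at 6 h it had 81.0, 82.0 and 91.5 FPKM, with a log2 change of -0.86 ± 0.20 that did not pass the threshold (adjusted p = 0.000542).

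POLR2M, whose protein associates with the polymerase and restrains its response to activators, showed the opposite order between the drugs. It had 30.7, 37.7 and 33.4 FPKM in imatinib 24 h libraries, 17.7, 19.9 and 21.2 FPKM in JQ1 24 h libraries and 10.1, 17.4 and 13.7 FPKM in combination libraries, against 59.4, 70.7 and 81.1 FPKM in DMSO libraries. JQ1 libraries lay below imatinib libraries without overlap at 24 h. It fell in each of the 3, with log2 changes of -1.02 ± 0.17 for imatinib, -1.79 ± 0.17 for JQ1 and -2.3 ± 0.17 for both, and in JQ1 6 h libraries, by 1.66 (adjusted p = 1.96e-08). The call for imatinib at 24 h was lost without DMSO replicate 3 (-0.92) or imatinib 24 h replicate 1 (-0.96), and the ratio-rescaled value for that comparison was positive, at 0.68. For the combination it was 0.05 on that scale. POLR2J, POLR2J2, POLR2J3 and POLR2J4 are related copies, and the counting could have shared reads between them. In the GENCODE 29 annotation 31.3% of the 75-base windows of POLR2J, 96.3% of those of POLR2J2, 35.8% of those of POLR2J3 and 33.1% of those of POLR2J4 were also found in another gene. For POLR2M the share was 18.4%, nearly all of it with GCOM1.

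Of the 15 tested genes of the general initiation factors 7 fell with imatinib at 6 h, with a median log2 change of -0.98 over the class, 7 with JQ1 at 6 h, and 14, 12 and 14 at 24 h of imatinib, JQ1 and both. After ratio rescaling 3 fell with imatinib at 24 h, GTF2H2 and its copy GTF2H2D among them, and 0 in the other comparisons with DMSO. GTF2H2, a core subunit of TFIIH, which opens promoter DNA and takes part in nucleotide excision repair, had 35.4, 32.4 and 37.5 FPKM in imatinib 6 h libraries, against 85.8, 106 and 126 FPKM in DMSO libraries. It fell by 1.55 on the log2 scale with no overlap between libraries (adjusted p = 3.47e-07), and at 24 h of imatinib, with 12.5, 14.6 and 14.3 FPKM, by 2.84 (adjusted p = 3.26e-12). The copies GTF2H2B, GTF2H2C and GTF2H2D fell by 1.53, 1.27 and 1.55 at 6 h of imatinib. With 58.0% of the windows of GTF2H2, 92.2% of those of GTF2H2B and 70.2% of those of GTF2H2C found in another gene, these 4 rows may hold the same reads and cannot be counted as 4 genes. The other called genes of the class at that time were GTF2F2, GTF2A2 and GTF2H1, subunits of TFIIF, TFIIA and TFIIH.

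On the ratio-rescaled scale GTF2H2, GTF2H2D and GTF2F2 fell with imatinib at 24 h, with log2 changes of -1.14, -1.13 and -1.13. GTF2F2 had 15, 18.4 and 16.5 FPKM in imatinib 24 h libraries, against 99.6, 131 and 148 FPKM in DMSO libraries, and these groups did not overlap. GTF2B, which is TFIIB itself and recruits the polymerase to the promoter, was among the least lowered genes of the class. It had 37.7, 31.5 and 37.1 FPKM in JQ1 6 h libraries and 20.3, 20.9 and 23.9 FPKM in JQ1 24 h libraries, against 31.6, 41.7 and 47.0 FPKM in DMSO libraries. The JQ1 6 h libraries overlapped DMSO and the log2 change was -0.16 ± 0.17 (adjusted p = 0.374). At 24 h it was -0.84 ± 0.17 with JQ1, which did not pass the threshold, while imatinib, with 11.6, 14.9 and 12.7 FPKM, and the combination, with 11.4, 16.9 and 16.3 FPKM, gave -1.53 and -1.37, both calls (adjusted p = 2.05e-08 and 8.11e-08) whose sign turned after ratio rescaling, to 0.13 and 0.96. GTF2H5, the smallest TFIIH subunit, was low throughout, at 2.19 to 3.56 FPKM on average in the drug groups and 5.10 FPKM in DMSO libraries, and was called in none of these 5 comparisons.

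TAF9 and TAF7 were the highest of the 15 tested TFIID genes in DMSO libraries, at 409 and 338 FPKM. Of the 15, 2 fell with imatinib and 6 with JQ1 at 6 h, and 12, 11 and 13 at 24 h of imatinib, JQ1 and both. On the ratio-rescaled scale 1 fell with imatinib at 24 h and 1 with both drugs, while 2 rose with JQ1 at each time and 1 with both drugs. In imatinib 24 h libraries TAF9 had 78.1, 92.3 and 86.8 FPKM, in JQ1 24 h libraries 229, 255 and 272 FPKM and in combination libraries 108, 183 and 139 FPKM, against 319, 417 and 491 FPKM in DMSO libraries. Every 24 h library lay below DMSO, and TAF9 fell with imatinib (log2 change -2.22, adjusted p = 2.35e-10) and with both drugs (-1.52, adjusted p = 6.91e-08), where the sign turned after ratio rescaling, to 0.91. With JQ1 at 24 h its log2 change was -0.68 ± 0.19, not a call, and on the ratio-rescaled scale it rose by 1.02 (adjusted p = 2e-11). The TAF9 row has a limit: the gene shares an exon stretch of 357 bases on the same strand with AK6, a kinase gene with no row of its own in the table, and 16.8% of its windows are found in another gene, so reads of AK6 could have been counted in it.

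TAF13, the histone-fold partner of TAF11 in TFIID, was the lowest member with imatinib at both times. It had 33.2, 38.2 and 39.9 FPKM in imatinib 6 h libraries and 9.04, 12.7 and 11.1 FPKM in imatinib 24 h libraries, against 93.2, 115 and 134 FPKM in DMSO libraries. It fell by 1.58 and by 3.27 on the log2 scale (adjusted p = 1.81e-07 and 2.89e-13), and the 24 h value was also a call after ratio rescaling, at -1.57. With JQ1 it had 53.2, 49.0 and 50.7 FPKM at 6 h and 17.5, 18.6 and 22.2 FPKM at 24 h, and fell by 1.13 and 2.49, and the 6 h value was 0.001 after ratio rescaling. In combination libraries it had 7.49, 11.8 and 10.1 FPKM, a log2 change of -3.42 ± 0.18 that was the lowest of the 101 genes. TAF8, the partner of TAF10 in TFIID, stood out at the other end with imatinib at 6 h, with 8.78, 8.91 and 10.6 FPKM against 7.14, 8.45 and 10.7 FPKM in DMSO libraries. The groups overlapped, the log2 change of 0.11 ± 0.16 was the highest of the group in that comparison (adjusted p = 0.524), and without DMSO replicate 1 it was -0.02.

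TAF12 was the least lowered TFIID gene above 5 FPKM in DMSO libraries with JQ1 and with both drugs at 24 h. It had 16.1, 19.5 and 23.5 FPKM in JQ1 24 h libraries and 11, 20.2 and 13.9 FPKM in combination libraries, against 20.2, 23.6 and 29 FPKM in DMSO libraries. JQ1 and DMSO libraries overlapped at 24 h, with a log2 change of -0.29 ± 0.19 (adjusted p = 0.147), and the combination gave -0.68 ± 0.19 (adjusted p = 0.00173), which was no call. After ratio rescaling TAF12 rose in both, by 1.32 and 1.62. TAF1, the largest TFIID subunit, which carries bromodomains, had 4.30, 3.77 and 4.41 FPKM in JQ1 6 h libraries, against 11.1, 12 and 15.3 FPKM in DMSO libraries, and fell by 1.41 (adjusted p = 5.65e-08). TAF7, which binds TAF1, had 206, 180 and 214 FPKM in JQ1 6 h libraries, against 277, 349 and 389 FPKM in DMSO libraries, with a log2 change of -0.74 ± 0.19 that was no call, though the groups did not overlap.

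The 5 tested genes counted under SAGA do not include TAF9, TAF12 and the other TAF genes that it shares with TFIID, which are counted under TFIID. All 5 fell with JQ1 at 6 h and with each treatment at 24 h, and 2, SUPT20H and TAF5L, fell with imatinib at 6 h. After ratio rescaling 1 fell with JQ1 at 6 h, 1 with both drugs and 0 in the other 3 comparisons. SUPT20H had 22.6, 21.6 and 25.9 FPKM in imatinib 6 h libraries, 8.88, 10.1 and 10.1 FPKM in imatinib 24 h libraries, 8.70, 9.43 and 11.1 FPKM in JQ1 24 h libraries and 3.04, 5.35 and 3.88 FPKM in combination libraries, against 42, 52.1 and 61.4 FPKM in DMSO libraries. Its level with JQ1 at 6 h, 10.7 FPKM on average, was close to those with a single drug at 24 h, at 9.74 FPKM with JQ1 and 9.71 FPKM with imatinib, and above that with both drugs, at 4.09 FPKM. Log2 changes were -1.11 with imatinib at 6 h, -2.29 with either drug at 24 h and -3.38 with both (adjusted p = 1.31e-05, 4.22e-11 for imatinib, 5.07e-11 for JQ1 and 3.49e-14). SUPT20H overlaps exons of EXOSC8 on the opposite strand, over 86 bases, and it is not stated whether counting used the strand.

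With imatinib at 6 h 4 of the 29 tested Mediator genes fell (MED1, MED10, MED17 and MED27), with JQ1 at 6 h 22, and at 24 h 28 with imatinib, 27 with JQ1 and 29 with both. On the ratio-rescaled scale 1 fell with JQ1 at 6 h, 1 with imatinib at 24 h and 2 with both drugs, where 1 also rose. The median log2 change at 6 h was -0.63 with imatinib and -1.23 with JQ1, and after ratio rescaling 0.12 and -0.14. MED1, the subunit that nuclear receptors bind, had 12.2, 12.4 and 15 FPKM in imatinib 6 h libraries, 9.86, 9.77 and 9.96 FPKM in JQ1 6 h libraries and 5.60, 6.15 and 5.80 FPKM in imatinib 24 h libraries, against 23.2, 26.5 and 33.1 FPKM in DMSO libraries. It fell in all 3, by 1.0, 1.38 and 2.05, and the call for imatinib at 6 h was lost without DMSO replicate 3 or without imatinib 6 h replicate 1 or 2 (values of -0.87 to -0.96).

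MED12 had 12.1, 11.9 and 13.7 FPKM in imatinib 6 h libraries, 6.88, 7.65 and 7.06 FPKM in imatinib 24 h libraries, 3.23, 3.87 and 4.67 FPKM in JQ1 24 h libraries and 1.86, 3.38 and 2.2 FPKM in combination libraries, against 17.8, 18.9 and 25.3 FPKM in DMSO libraries. Its JQ1 levels at 6 h and 24 h overlapped, at 3.35 and 3.92 FPKM on average. The log2 change with imatinib at 6 h, -0.66 ± 0.17, was no call, and those at 24 h were -1.39 with imatinib, -2.13 with JQ1 and -2.65 with both (adjusted p = 4.82e-08, 6.86e-11 and 6.96e-13). For imatinib at 24 h the sign turned after ratio rescaling, to 0.21. MED13L, another kinase module gene, was the least lowered Mediator gene with imatinib at 24 h, with 7.89, 9.92 and 8.26 FPKM against 14.4, 14.4 and 18.8 FPKM in DMSO libraries. The groups did not overlap, and the log2 change of -0.80 ± 0.16 was no call (0.78 after ratio rescaling).

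MED27, MED24 and MED22 had the lowest log2 changes of the Mediator genes with JQ1 and with both drugs at 24 h. MED27 had 9.47, 10.8 and 10.6 FPKM in imatinib 24 h libraries and 6.17, 10.1 and 6.67 FPKM in combination libraries, against 67.6, 85.0 and 103 FPKM in DMSO libraries, and fell by 2.92 and 3.33 (adjusted p = 1.7e-12 and 7.18e-14). Both were calls after ratio rescaling as well, at -1.23 and -1.01. MED24, in the tail of Mediator, had 3.15, 3.84 and 4.58 FPKM in JQ1 24 h libraries, against 24.0, 26.3 and 32.4 FPKM in DMSO libraries, and fell by 2.56 (adjusted p = 3.09e-12). MED22, in the head, had 3.32, 4.30 and 4.70 FPKM in JQ1 24 h libraries, against 25.2, 25.6 and 36.2 FPKM in DMSO libraries, and fell by 2.55 (adjusted p = 4.19e-12). None of these groups overlapped. MED26, which links Mediator to elongation factors, had 14.5, 14.3 and 16.2 FPKM in JQ1 6 h libraries, against 16.5, 21.9 and 27.3 FPKM in DMSO libraries, with a log2 change of -0.49 ± 0.20 (adjusted p = 0.0215) that was no call. Its call for JQ1 at 24 h, at -1.14, was lost without DMSO replicate 3 (-0.97) and stood at 0.45 after ratio rescaling.

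**Figure D3:**
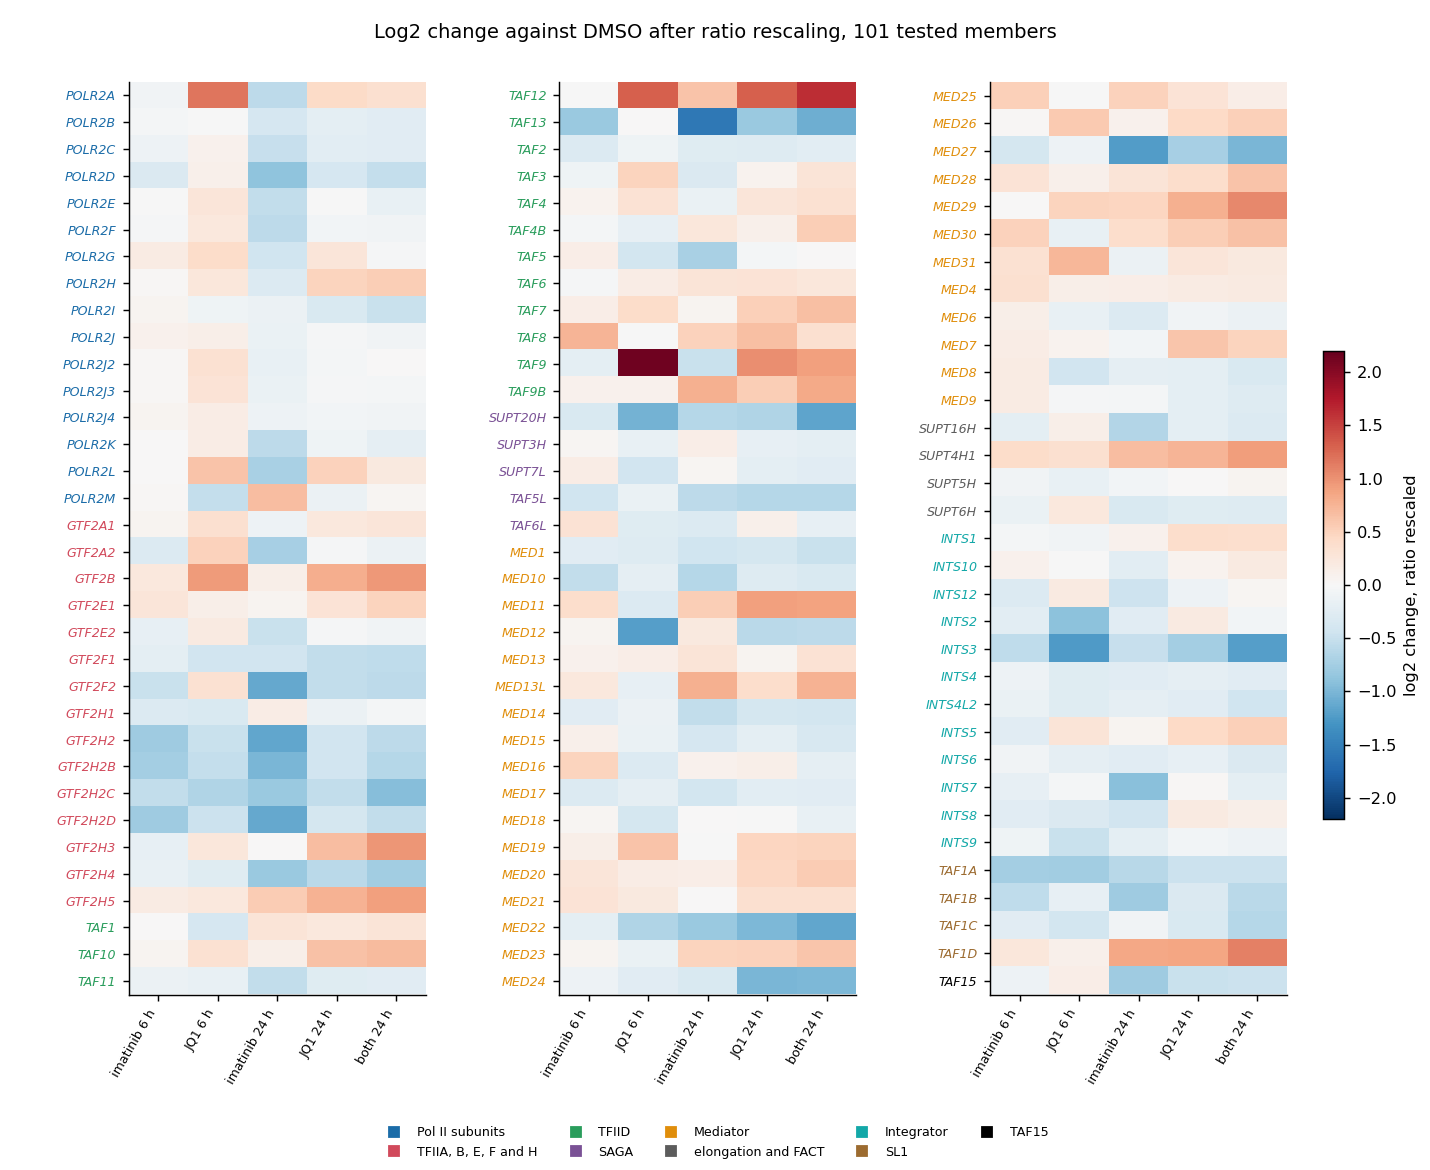
Log2 change against DMSO after ratio rescaling for the 101 tested genes (rows, names colored by complex) in the 5 comparisons (columns); red is above and blue below the typical tested gene, and the color scale runs from -2.2 to 2.2. TAF9 and TAF12 stand out in red with JQ1 at 6 h, at 2.14 and 1.32, and TAF13 in blue with imatinib at 24 h, at -1.57.

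Of the 4 elongation and histone chaperone genes, 0 fell with imatinib and 2 with JQ1 at 6 h, and 4, 3 and 4 at 24 h of imatinib, JQ1 and both, and 0 in each after ratio rescaling. SUPT5H, which pairs with SUPT4H1 in the factor DSIF that holds polymerase II in its pause, had 38.9, 37.9 and 44.9 FPKM in imatinib 6 h libraries, 29.6, 27.8 and 30.3 FPKM in JQ1 6 h libraries, 20.7, 21.1 and 21.6 FPKM in imatinib 24 h libraries, 19.6, 22.6 and 26 FPKM in JQ1 24 h libraries and 10.5, 20.1 and 13.4 FPKM in combination libraries, against 59.6, 70.8 and 93.1 FPKM in DMSO libraries. No drug library reached the DMSO libraries, and SUPT5H fell in each comparison but imatinib at 6 h, by 1.30, 1.75, 1.65 and 2.29 in that order. After ratio rescaling its values lay between -0.17 and 0.06. SUPT16H, the large subunit of the histone chaperone FACT, had 54.4, 47.6 and 58.9 FPKM in imatinib 6 h libraries, 54.1, 50.6 and 54.4 FPKM in JQ1 6 h libraries and 19.1, 21.4 and 20.1 FPKM in imatinib 24 h libraries, against 88.6, 104 and 133 FPKM in DMSO libraries. Its 6 h values sat at the threshold, with log2 changes of -0.99 ± 0.19 for imatinib, which was no call and became one when any of 4 libraries was left out, and -1.0 ± 0.19 for JQ1, which lost the call without DMSO replicate 3 (-0.85) or JQ1 6 h replicate 2 (-0.97) and was 0.13 after ratio rescaling. At 24 h of imatinib SUPT16H fell by 2.35 (adjusted p = 1.35e-10).

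Of the 12 Integrator genes, 4 fell with imatinib and 10 with JQ1 at 6 h, and all 12 with each treatment at 24 h. After ratio rescaling 1 fell with JQ1 at 6 h and 1 with both drugs, in each case INTS3, and 0 in the other 3. INTS3 had 18, 16.9 and 19.3 FPKM in imatinib 6 h libraries, 9.34, 10.2 and 9.37 FPKM in imatinib 24 h libraries, 6.81, 8.40 and 9.51 FPKM in JQ1 24 h libraries and 2.74, 4.71 and 3.24 FPKM in combination libraries, against 39.2, 44.4 and 58.0 FPKM in DMSO libraries. It fell in each, by 1.32, 2.16, 2.37 and 3.40, and the combination value was a call after ratio rescaling, at -1.20. Exons of INTS3 overlap those of SLC27A3 on the same strand over 455 bases. INTS6, another Integrator subunit, had 10.6, 9.37 and 10.9 FPKM in JQ1 6 h libraries, against 22.7, 25.8 and 31.3 FPKM in DMSO libraries, and fell by 1.28 (adjusted p = 2.7e-07).

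Of the 4 SL1 genes, 2 fell with imatinib at 6 h (TAF1A and TAF1B, by 1.52 and 1.33), 3 with JQ1 at 6 h, 3 with imatinib and 3 with JQ1 at 24 h, and 4 with both, and 0 in each after ratio rescaling. The exception at 24 h was TAF1D, with 15.4, 16.8 and 16.6 FPKM in imatinib 24 h libraries and 14.9, 16.9 and 18.9 FPKM in JQ1 24 h libraries, against 23.6, 28.4 and 36.0 FPKM in DMSO libraries. Its log2 changes of -0.79 ± 0.18 and -0.75 ± 0.18 were no calls, and no library overlapped DMSO. After ratio rescaling the sign turned for both drugs, to 0.86 for imatinib and 0.87 for JQ1. On the total-rescaled scale TAF1D rose with imatinib, by 1.30, beside 20% of all tested genes that rose, and stood at 0.98 with JQ1. In combination libraries it had 9.21, 15.1 and 12.7 FPKM and fell by 1.19 on the deposited scale (adjusted p = 1.77e-06), and the sign turned after ratio rescaling, where it rose by 1.12 (adjusted p = 1.29e-11). TAF15 was not called at 6 h and fell with every treatment at 24 h, by 2.50 with imatinib, 2.17 with JQ1 and 2.86 with both, and was called in none of the 5 after ratio rescaling.

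Direct comparison of the drugs at 6 h asked where JQ1 and imatinib differed. With JQ1 8 genes were lower than with imatinib (MED11, MED12, MED16, MED30, TAF8, SUPT20H, INTS2 and INTS3) and TAF9 was higher, beside 9.36% of all tested genes that were lower and 1.95% that were higher. TAF9 had 856, 700 and 871 FPKM in JQ1 6 h libraries and 203, 196 and 210 FPKM in imatinib 6 h libraries, a log2 difference of 1.98 ± 0.19 (adjusted p = 2.28e-08), and 2.35 after ratio rescaling. MED12, with 3.10, 3.37 and 3.59 FPKM with JQ1 and 12.1, 11.9 and 13.7 FPKM with imatinib, differed by -1.64 ± 0.17 (adjusted p = 5.43e-08). The JQ1 and imatinib libraries did not overlap for either gene. MED16, a tail subunit of Mediator, differed by -1.16 ± 0.21, with 35.0, 32.6 and 37.0 FPKM with JQ1 and 74.0, 79.6 and 83.1 FPKM with imatinib, and TAF8 by -1.09 ± 0.16, with 4, 3.66 and 3.96 FPKM with JQ1 and 8.78, 8.91 and 10.6 FPKM with imatinib (adjusted p = 0.000113 and 5.98e-06).

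After ratio rescaling, 4 differences between the drugs at 6 h remained past the threshold or newly passed it: TAF9, TAF12 (1.32) and POLR2A (1.27) were higher with JQ1, and MED12 (-1.28) was lower. On that scale 3.43% of all tested genes were higher and 3.3% lower with JQ1. On the total-rescaled scale 2 genes were higher and 4 lower, beside 1.95% and 7.57% of all tested genes. On the deposited scale TAF12 differed by 0.99 ± 0.19 and POLR2A by 0.91 ± 0.20, both short of the threshold. The median differences were -0.33 for the 101 genes and -0.30 for all tested genes. Between complexes, the ratio-rescaled medians were 0.22 for polymerase II subunits, 0.29 for the general factors and 0.21 for TFIID, and -0.60 for SAGA, -0.20 for Mediator and -0.11 for Integrator, given without a test.

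**Figure D4:**
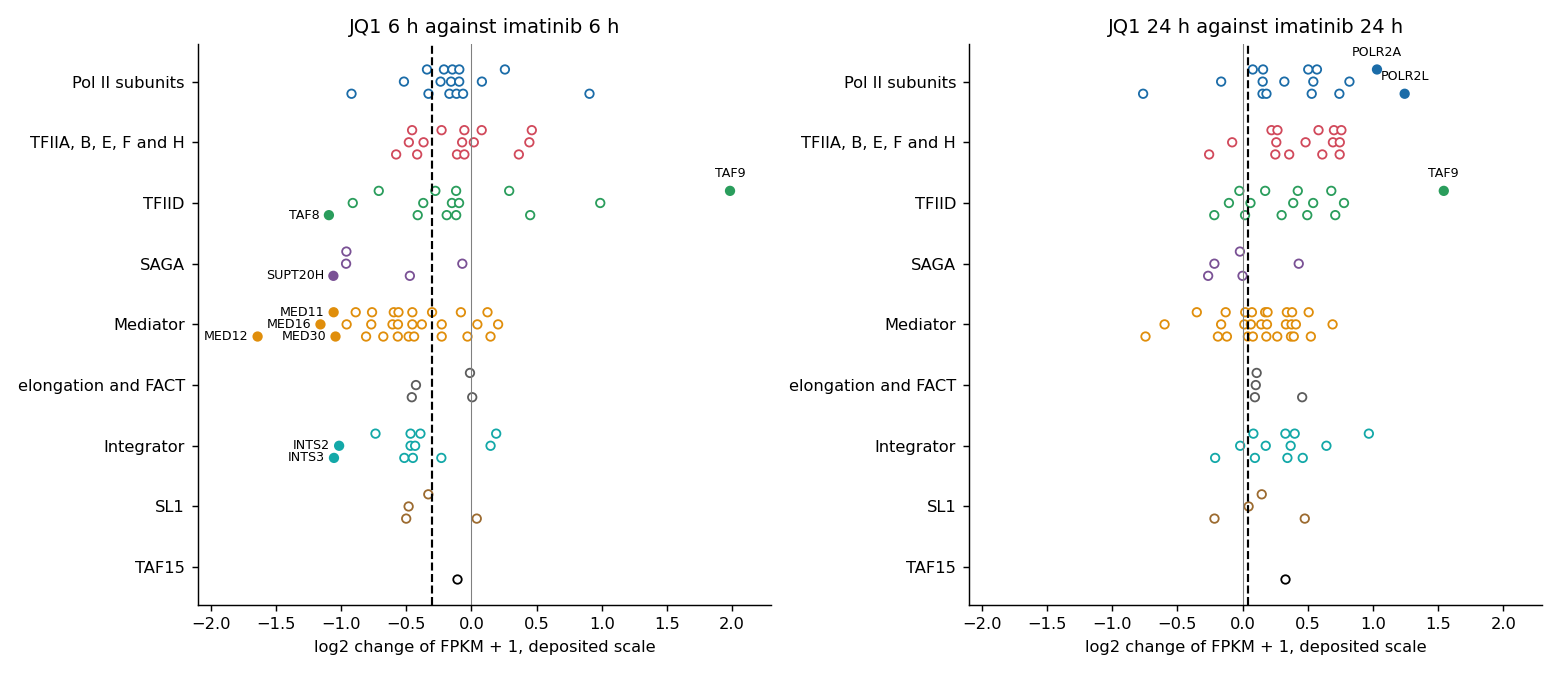
Log2 difference of FPKM + 1, JQ1 over imatinib, for the 101 tested genes by complex at 6 h (left) and 24 h (right) on the deposited scale; filled points passed the test and are named, and the dashed line is the median of all tested genes. TAF9 lies farthest right in both panels, at 1.98 and 1.54, and 8 genes passed on the left side at 6 h against 0 at 24 h.

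At 24 h 3 genes were higher with JQ1 than with imatinib and 0 were lower, beside 3.59% of all tested genes that were higher and 4.88% that were lower. TAF9 had 229, 255 and 272 FPKM in JQ1 24 h libraries and 78.1, 92.3 and 86.8 FPKM in imatinib 24 h libraries, a log2 difference of 1.54 ± 0.19 (adjusted p = 9.74e-07). POLR2L, a small subunit shared by the nuclear polymerases, had 81.8, 97.9 and 121 FPKM with JQ1 and 37.7, 42.4 and 43.9 FPKM with imatinib, a difference of 1.24 ± 0.20 (adjusted p = 4.64e-05). POLR2A differed by 1.03 ± 0.20 (adjusted p = 0.000227), with JQ1 libraries at 54.2, 66.1 and 71.6 FPKM and imatinib libraries at 31.1, 31.7 and 29.1 FPKM. None of the 3 overlapped between the drugs, and all 3 were also higher after ratio rescaling, where 3.57% of all tested genes were higher and 6.09% lower. The POLR2A call was lost without imatinib 24 h replicate 3 (0.995) or JQ1 24 h replicate 3 (0.95), and on the total-rescaled scale it stood at 0.66 and POLR2L at 0.87, neither a call. On that scale 1 gene was higher and 2 were lower with JQ1, beside 1.88% and 12.4% of all tested genes.

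At the lower end were POLR2M, MED12 and MED24, with differences of -0.76 ± 0.17, -0.74 ± 0.17 and -0.60 ± 0.16 (adjusted p = 0.00131, 0.00108 and 0.00553), none of them a call. MED24 had 3.15, 3.84 and 4.58 FPKM in JQ1 24 h libraries and 6.01, 6.34 and 6.56 FPKM in imatinib 24 h libraries, without overlap. The median difference was 0.26 for the 101 genes, 80 of which lay above 0, and 0.04 for all tested genes. The sign turned on the total-rescaled scale, where the medians were -0.08 for the 101 genes, 42 of which lay above 0, and -0.29 for all tested genes. Medians of the ratio-rescaled differences were 0.38 for polymerase II subunits, 0.46 for the general factors, 0.39 for TFIID and 0.31 for Integrator, against -0.05 for SAGA and 0.15 for Mediator.

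Both drugs together were compared with each drug alone at 24 h. Against imatinib alone 6 genes were lower with both (POLR2M, MED12, INTS3, MED24, SUPT20H and TAF1C) and 0 were higher, beside 14.5% of all tested genes that were lower and 0.423% that were higher. POLR2M, with 10.1, 17.4 and 13.7 FPKM in combination libraries and 30.7, 37.7 and 33.4 FPKM in imatinib 24 h libraries, differed by -1.28 ± 0.17 (adjusted p = 2.35e-06). MED12 differed by -1.26 ± 0.17 and INTS3 by -1.24 ± 0.17 (adjusted p = 1.5e-06 and 3.15e-06), and none of the 3 overlapped. At the upper end TAF9 had 108, 183 and 139 FPKM in combination libraries and 78.1, 92.3 and 86.8 FPKM in imatinib 24 h libraries, a difference of 0.71 ± 0.19 that was no call and became one after ratio rescaling (1.40, adjusted p = 8.74e-13, beside 2.37% of all tested genes higher). The number of lower genes was 13 without combination replicate 2, for which no share of all tested genes was computed. After ratio rescaling the number was 0, where 5.58% of all tested genes were lower. On the total-rescaled scale 1 gene was higher and 2 were lower, beside 1.26% and 11.2% of all tested genes.

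Against JQ1 alone 4 genes were lower with both drugs (SUPT20H, INTS3, POLR2G and MED16) and 0 higher, beside 7.35% of all tested genes that were lower and 0.047% that were higher. SUPT20H, with 3.04, 5.35 and 3.88 FPKM in combination libraries and 8.70, 9.43 and 11.1 FPKM in JQ1 24 h libraries, differed by -1.10 ± 0.17 (adjusted p = 6.64e-05). INTS3 differed by -1.03 ± 0.17 (adjusted p = 0.000106). POLR2G, a subunit of the polymerase stalk, had 69.5, 122 and 90.0 FPKM in combination libraries and 161, 189 and 214 FPKM in JQ1 24 h libraries, a difference of -1.02 ± 0.19 (adjusted p = 0.000259). These groups did not overlap. Least different among genes above 5 FPKM were MED13L, TAF12 and GTF2H3, a TFIIH subunit, at -0.26 ± 0.16, -0.39 ± 0.19 and -0.40 ± 0.17, each with overlapping libraries.

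These 4 calls turned on single libraries: the count was 0 without combination replicate 1, 1 without JQ1 24 h replicate 3, 2 without combination replicate 3, 8 without the unnumbered JQ1 24 h library and 23 without combination replicate 2, the library with the most RNA of its group. Shares of all tested genes were not computed with a library left out, so these counts cannot be read as particular to the members. On the ratio-rescaled scale 0 genes passed, beside 0.227% of all tested genes that were higher and 0.814% that were lower, and on the total-rescaled scale 0, beside 0.266% and 0.846%.

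Companion genes of the same machinery with other symbols were also read. Of 41 listed, 37 were tested. They include the TFIIH kinase genes, the negative elongation factor NELF, the PAF1 complex, the partner of SUPT16H in FACT and polymerase assembly factors. In the comparisons with DMSO 6 fell with imatinib and 24 with JQ1 at 6 h, and 35 with imatinib, 34 with JQ1 and 35 with both at 24 h, and 0 rose. As above, 20% and 49.8% of all tested genes fell at 6 h and 72.1%, 75.3% and 86% at 24 h. After ratio rescaling 0 were called at 6 h, 2 rose and 2 fell with imatinib at 24 h, and 2 rose and 1 fell with JQ1 at 24 h and with both drugs. The shares of all tested genes on that scale are those given above. SSRP1, the FACT partner, fell by 2.80 with imatinib at 24 h and by 3.91 with both drugs (adjusted p = 1.31e-11 and 2.64e-14). NABP1, which binds single-stranded DNA in a complex with INTS3, averaged 0.467 FPKM with imatinib at 6 h and 3.21 FPKM with DMSO and fell by 1.52 (adjusted p = 2.27e-11). VWA9, an Integrator subunit, fell by 2.09 and NELFA, a NELF subunit, by 1.86 with JQ1 at 6 h (adjusted p = 1.18e-09 and 3.82e-09). Their medians after ratio rescaling were -0.10, -0.01, -0.23, -0.03 and -0.05 for imatinib 6 h, JQ1 6 h, imatinib 24 h, JQ1 24 h and the combination.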

How the data were processed

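Poly(A) RNA of GIST-T1 cells was sequenced as stranded, single-end libraries, per the labels. The authors deposited 1 table of FPKM values for 23621 genes and 92 ERCC spike-ins in 18 libraries, made with STAR and Cufflinks on hg19 per the submitters' processing notes. Tool versions, the step that put values on the spike-in scale and the use of strand in counting are not given in the sources used here. Depth is therefore unknown.

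All libraries entered 1 limma fit (limma 3.58.1, R 4.3.3) on log2(FPKM + 1) with group means, an intensity trend, 12 residual degrees of freedom and two-sided tests. Tests covered the 12771 genes that reached 1 FPKM in 3 or more libraries, and p-values were adjusted over them by Benjamini-Hochberg within each of 9 comparisons. Fold changes on this scale understate the change of low genes. Calls needed an adjusted p below 0.05 and a log2 change of at least 1. The code was tested on simulated data. 1 JQ1 24 h library's column number matches no title, so it has no replicate number. Library pairs within groups correlated at 0.9795 to 0.9887 (Pearson, log2 values).

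Members and gene lists were chosen with earlier results of these data known. The rule named 11 genes in every DMSO comparison and, in each comparison, the 3 highest and 3 lowest members averaging at least 5 FPKM in the higher group. Other members named beside counts, and the 8 genes drawn by library, were chosen after their values were seen. Exon overlaps and shared 75-base windows come from GENCODE 29 on GRCh38, not the authors' build. RefSeq promoters were found for 81 of the 108 members. Alternatives were other pseudocounts, filters and scalings, the compared groups only, a replicate block, no fold limit and leaving out each library.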

Additional observations from a re-analysis of the deposited data

How the results depend on the processing

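Of the 107 gene and comparison pairs named by rule, all 107 kept their direction and their side of the threshold when the fit used the compared groups only, had no filter, or held the replicate number as a block. Deviations of same-numbered libraries correlated over genes at -0.219 to 0.193 in 24 pairs, above 0.1 in 3. Such a correlation leaves out a shift shared by all genes of a library, so it cannot decide whether the numbers pair the libraries. In each group with both numbers the ratio-rescaling factor of replicate 3 was above that of replicate 1 (2.99 and 2.06 for DMSO). Replicate 2 had the highest factor of the combination (0.61) and the lowest of imatinib 6 h (1.35). With the block the gap between the medians was 0.1816 for JQ1 24 h against imatinib 24 h. The unnumbered JQ1 24 h library was in no pair. In the fit with the block it formed a block of its own, so it added nothing to the JQ1 24 h estimates there. Read counts were not used here, so depth is unknown and only the spread between libraries measures precision.

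With a pseudocount of 0.1 the gap between the medians of members and of all tested genes was -0.03157 for imatinib 6 h against DMSO, -0.04011 for JQ1 6 h against DMSO, -0.2619 for imatinib 24 h against DMSO, -0.03819 for JQ1 24 h against DMSO, -0.1347 for combination 24 h against DMSO, 0.2403 for JQ1 24 h against imatinib 24 h, 0.1857 for combination 24 h against imatinib 24 h and -0.07566 for combination 24 h against JQ1 24 h, and the number of members called was 10 for combination 24 h against imatinib 24 h and 11 for combination 24 h against JQ1 24 h. Without the filter on low values the gap between the medians of members and of all tested genes was -0.5337 for imatinib 6 h against DMSO, -0.6187 for JQ1 6 h against DMSO, -1.411 for imatinib 24 h against DMSO, -1.091 for JQ1 24 h against DMSO, -1.546 for combination 24 h against DMSO, -0.2886 for JQ1 6 h against imatinib 6 h, 0.1825 for JQ1 24 h against imatinib 24 h, -0.2588 for combination 24 h against imatinib 24 h and -0.5175 for combination 24 h against JQ1 24 h. Among genes averaging at least 5 FPKM the gap between the medians of members and of all tested genes was -0.02182 for imatinib 6 h against DMSO, -0.06787 for JQ1 6 h against DMSO, -0.1498 for imatinib 24 h against DMSO, -0.03732 for JQ1 24 h against DMSO, -0.09295 for combination 24 h against DMSO, 0.151 for JQ1 24 h against imatinib 24 h and -0.05755 for combination 24 h against JQ1 24 h. With ratio rescaling the gap between the medians of members and of all tested genes was -0.01869 for imatinib 6 h against DMSO, -0.01881 for JQ1 6 h against DMSO, -0.2203 for imatinib 24 h against DMSO, -0.01188 for JQ1 24 h against DMSO, -0.07569 for combination 24 h against DMSO, 0.2147 for combination 24 h against imatinib 24 h and -0.04493 for combination 24 h against JQ1 24 h, and the number of members called was 0 for imatinib 6 h against DMSO, 6 for JQ1 6 h against DMSO, 5 for imatinib 24 h against DMSO, 2 for JQ1 24 h against DMSO, 8 for combination 24 h against DMSO, 4 for JQ1 6 h against imatinib 6 h, 1 for combination 24 h against imatinib 24 h and 0 for combination 24 h against JQ1 24 h. With total rescaling the gap between the medians of members and of all tested genes was -0.0212 for imatinib 6 h against DMSO, -0.06627 for JQ1 6 h against DMSO, -0.198 for imatinib 24 h against DMSO, -0.0001875 for JQ1 24 h against DMSO, -0.05753 for combination 24 h against DMSO, 0.1743 for combination 24 h against imatinib 24 h and -0.04218 for combination 24 h against JQ1 24 h, and the number of members called was 0 for imatinib 6 h against DMSO, 7 for JQ1 6 h against DMSO, 7 for imatinib 24 h against DMSO, 2 for JQ1 24 h against DMSO, 12 for combination 24 h against DMSO, 3 for combination 24 h against imatinib 24 h and 0 for combination 24 h against JQ1 24 h. With total rescaling that left out any row whose symbol begins with MIR1244, the gap between the medians of members and of all tested genes was -0.02527 for imatinib 6 h against DMSO, -0.06324 for JQ1 6 h against DMSO, -0.223 for imatinib 24 h against DMSO, -0.02729 for JQ1 24 h against DMSO, -0.09733 for combination 24 h against DMSO, 0.1814 for combination 24 h against imatinib 24 h and -0.05069 for combination 24 h against JQ1 24 h, and the number of members called was 0 for imatinib 6 h against DMSO, 6 for JQ1 6 h against DMSO, 5 for imatinib 24 h against DMSO, 3 for JQ1 24 h against DMSO, 8 for combination 24 h against DMSO, 5 for JQ1 6 h against imatinib 6 h, 1 for combination 24 h against imatinib 24 h and 0 for combination 24 h against JQ1 24 h. With no limit on the size of the change the number of members called was 94 for imatinib 6 h against DMSO, 97 for JQ1 6 h against DMSO, 46 for JQ1 6 h against imatinib 6 h, 30 for JQ1 24 h against imatinib 24 h, 51 for combination 24 h against imatinib 24 h and 97 for combination 24 h against JQ1 24 h. The cause of these shifts was not tested. Shares of all tested genes were not computed for the pseudocount of 0.1, the scaling without MIR1244 or no size limit. The counts of members in those settings therefore cannot be read as particular to the members. The same holds for the counts with 1 library left out, above and below.

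Leaving out 1 library at a time, the number of members called was 12 to 39 for imatinib 6 h against DMSO, 50 to 79 for JQ1 6 h against DMSO, 89 to 97 for imatinib 24 h against DMSO, 86 to 92 for JQ1 24 h against DMSO, 98 to 99 for combination 24 h against DMSO, 6 to 12 for JQ1 6 h against imatinib 6 h, 2 to 4 for JQ1 24 h against imatinib 24 h, 4 to 13 for combination 24 h against imatinib 24 h and 0 to 23 for combination 24 h against JQ1 24 h. The gap between the medians was -0.1109 to -0.05631 for imatinib 6 h against DMSO, -0.1408 to -0.09024 for JQ1 6 h against DMSO, -0.4175 to -0.3326 for imatinib 24 h against DMSO, -0.1918 to -0.1421 for JQ1 24 h against DMSO, -0.3364 to -0.265 for combination 24 h against DMSO, -0.04352 to -0.006594 for JQ1 6 h against imatinib 6 h, 0.1813 to 0.2353 for JQ1 24 h against imatinib 24 h, 0.09577 to 0.1182 for combination 24 h against imatinib 24 h and -0.1764 to -0.1247 for combination 24 h against JQ1 24 h.

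Rescaling by library factors moves the genes of a comparison together, though low genes by less because 1 is added. Many named genes with changes closer to 0 than the median of all genes changed sign. Some that lay somewhat farther from 0 did so too, such as POLR2M for the combination, at -2.3 against a median of -2.05 on the deposited scale. For imatinib 6 h against DMSO, ratio rescaling gave log2 values of the opposite sign, MED25 0.5264, MED30 0.5117, POLR2M 0.0262, MED12 0.06542, MED26 0.03335, TAF1 0.003049, TAF7 0.1471 and GTF2B 0.225. For JQ1 6 h against DMSO, ratio rescaling gave log2 values of the opposite sign, MED26 0.5751, TAF7 0.3995, GTF2B 0.9426 and SUPT16H 0.1316. For imatinib 24 h against DMSO, ratio rescaling gave log2 values of the opposite sign, GTF2H5 0.5578, TAF1D 0.8572, MED13L 0.7842, POLR2M 0.6767, MED12 0.2103, MED26 0.08746, TAF1 0.2877, TAF7 0.05757 and GTF2B 0.1293. For JQ1 24 h against DMSO, ratio rescaling gave log2 values of the opposite sign, TAF12 1.318, GTF2H5 0.7678, TAF9 1.023, POLR2A 0.4224, MED26 0.4462, TAF1 0.2324, TAF7 0.5213, GTF2B 0.8003 and SUPT5H 0.009997. For combination 24 h against DMSO, ratio rescaling gave log2 values of the opposite sign, TAF12 1.618, GTF2H5 0.9078, TAF1D 1.116, POLR2A 0.3517, POLR2M 0.04931, MED26 0.5244, TAF1 0.2885, TAF7 0.6693, GTF2B 0.9585 and SUPT5H 0.0614. For combination 24 h against JQ1 24 h, ratio rescaling gave log2 values of the opposite sign, MED13L 0.3773, TAF12 0.3 and GTF2H3 0.2823. For imatinib 6 h against DMSO, total rescaling gave log2 values of the opposite sign, MED25 0.5243, MED30 0.5076, POLR2M 0.01928, MED12 0.05962, MED26 0.0272, TAF7 0.14 and GTF2B 0.2199. For JQ1 6 h against DMSO, total rescaling gave log2 values of the opposite sign, MED26 0.2749, TAF7 0.07231 and GTF2B 0.6291. For imatinib 24 h against DMSO, total rescaling gave log2 values of the opposite sign, GTF2H5 0.9547, TAF1D 1.301, MED13L 1.22, POLR2M 1.123, MED12 0.6321, MED26 0.5063, TAF1 0.6986, TAF7 0.506, GTF2B 0.563, SUPT5H 0.3864 and INTS6 0.1628. For JQ1 24 h against DMSO, total rescaling gave log2 values of the opposite sign, TAF12 1.427, GTF2H5 0.8825, TAF9 1.123, POLR2A 0.5226, MED26 0.5461, TAF1 0.3259, TAF7 0.6218, GTF2B 0.9033 and SUPT5H 0.1077. For combination 24 h against DMSO, total rescaling gave log2 values of the opposite sign, TAF12 1.755, GTF2H5 1.051, TAF1D 1.248, POLR2A 0.4777, POLR2M 0.1728, MED26 0.65, TAF1 0.407, TAF7 0.7961, GTF2B 1.088 and SUPT5H 0.185. For combination 24 h against JQ1 24 h, total rescaling gave log2 values of the opposite sign, MED13L 0.4091, TAF12 0.3277 and GTF2H3 0.3102. For imatinib 6 h against DMSO, total rescaling without MIR1244 gave log2 values of the opposite sign, MED25 0.498, MED30 0.4795, MED12 0.03322, MED26 0.0006965, TAF7 0.1108 and GTF2B 0.1922. For JQ1 6 h against DMSO, total rescaling without MIR1244 gave log2 values of the opposite sign, MED26 0.3476, TAF7 0.1485 and GTF2B 0.7045. For imatinib 24 h against DMSO, total rescaling without MIR1244 gave log2 values of the opposite sign, GTF2H5 0.6483, TAF1D 0.938, MED13L 0.8687, POLR2M 0.7526, MED12 0.2823, MED26 0.1571, TAF1 0.3614, TAF7 0.1309, GTF2B 0.2012 and SUPT5H 0.01879. For JQ1 24 h against DMSO, total rescaling without MIR1244 gave log2 values of the opposite sign, TAF12 1.223, GTF2H5 0.7118, TAF9 0.9098, POLR2A 0.3107, MED26 0.3474, TAF1 0.1387, TAF7 0.4085 and GTF2B 0.6966. For combination 24 h against DMSO, total rescaling without MIR1244 gave log2 values of the opposite sign, TAF12 1.49, GTF2H5 0.8256, TAF1D 0.9834, POLR2A 0.2052, MED26 0.3935, TAF1 0.165, TAF7 0.5217 and GTF2B 0.8213. For combination 24 h against JQ1 24 h, total rescaling without MIR1244 gave log2 values of the opposite sign, MED13L 0.349, TAF12 0.2672 and GTF2H3 0.2498. Without DMSO replicate 1 TAF8 for imatinib at 6 h stood at -0.0167 and POLR2A for JQ1 at 6 h at -0.07454, and without DMSO replicate 2 POLR2A stood at -0.003962. Their highest values over the left-out libraries were 0.2454 for TAF8 and 0.2242 for POLR2A.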
